A study of Rattus norvegicus with 7 samples.

Results

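Cyclins, the kinases they switch on, the inhibitors of those kinases and the proteins that license and fire replication origins were followed in rat testis after cadmium. The members were all probe sets whose only gene symbol in the array annotation begins with Ccna, Ccnb, Ccnd, Ccne, Ccnf, Ccng, Ccnh, Cdk, Aurk, Plk or Bub, or with Mcm or Cdc and then a digit, leaving out Mcm3ap and the Cdc42 names. They came to 141 of the 31042 probe sets that are not array controls, and to 91 of 14217 genes. The rule reads gene names only, but it was drawn up with earlier results of these data known. A prefix does not fix a function, so the set also holds Cdkal1, which modifies a transfer RNA, and the splicing factors Cdc40 and Cdc5l. Of the members, 121 probe sets of 86 genes passed the filter on low signal and were tested. The 5 genes left out were Cdk5r2, Cdk5rap1, Cdk6, Cdkn2a and Plk5, and Cdc6, Cdc7 and Cdc25c are not analysed here.

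The samples were whole testes of adult male rats of the outbred Sprague-Dawley stock, each hybridized to its own Affymetrix array. Testes were taken 20 h (n = 2) or 8 h (n = 2) after a single intraperitoneal injection of cadmium chloride at 3 mg/kg, or from untreated rats (n = 3), for which the labels describe no vehicle injection. The labels call the arrays of a group biological replicates, read here as separate animals. Precision is limited by the number of arrays. In whole tissue, fewer cells of a type and less RNA per cell cannot be told apart.

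A cyclin binds a cyclin-dependent kinase and switches it on. D and E cyclins act in G1 phase and at entry into S phase, A cyclins in S and G2, and B cyclins with Cdk1 at entry into division, while Cdkn proteins hold the kinases back. Before S phase, the Mcm helicase is loaded at replication origins, which licenses them, and Cdc45 joins it when an origin fires. In the adult testis, spermatogonia divide by mitosis, spermatocytes replicate their DNA once and then divide by meiosis, and several members have germ cell forms, such as the meiotic A-type cyclin Ccna1.

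Promoters are shown for 6 members whose signals the results turn on, because many cell cycle genes are known to be controlled through E2F elements and through paired CCAAT and CHR (cell cycle homology region) elements. The sequences run 5′ to 3′ from 250 bases before to 50 bases after the gene start, from RefSeq on build GRCr8, and capitals mark CCAAT, the CHR letters TTTGAA and the E2F letters TTTGGCGC and TTTCGCGC, searched on both strands. They are Cdk1 (chr20:19265043-19265342, plus strand), Mcm2 (chr4:122918045-122918344, minus strand), Mcm5 (chr19:13488563-13488862, plus strand), Cdc25a (chr8:118742798-118743097, plus strand), Ccnb2 (chr8:79981609-79981908, minus strand) and Ccng1 (chr10:25684827-25685126, minus strand).
Cdk1: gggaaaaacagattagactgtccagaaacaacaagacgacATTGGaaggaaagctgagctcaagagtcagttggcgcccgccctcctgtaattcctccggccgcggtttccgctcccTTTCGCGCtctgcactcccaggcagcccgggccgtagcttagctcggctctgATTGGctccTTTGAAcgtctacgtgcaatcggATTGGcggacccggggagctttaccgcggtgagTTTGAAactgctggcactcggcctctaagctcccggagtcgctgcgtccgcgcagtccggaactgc
Mcm2: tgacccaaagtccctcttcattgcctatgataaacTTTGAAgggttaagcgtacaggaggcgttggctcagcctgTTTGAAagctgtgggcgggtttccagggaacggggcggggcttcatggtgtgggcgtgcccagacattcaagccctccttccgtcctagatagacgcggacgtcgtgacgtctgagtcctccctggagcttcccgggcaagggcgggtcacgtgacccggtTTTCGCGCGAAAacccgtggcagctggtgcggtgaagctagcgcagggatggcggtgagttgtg
Mcm5: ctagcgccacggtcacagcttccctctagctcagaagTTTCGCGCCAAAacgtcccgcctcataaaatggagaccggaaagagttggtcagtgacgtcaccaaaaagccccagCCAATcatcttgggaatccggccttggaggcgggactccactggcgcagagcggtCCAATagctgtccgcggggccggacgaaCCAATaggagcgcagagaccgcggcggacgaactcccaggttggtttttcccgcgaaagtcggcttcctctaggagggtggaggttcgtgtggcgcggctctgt
Cdc25a: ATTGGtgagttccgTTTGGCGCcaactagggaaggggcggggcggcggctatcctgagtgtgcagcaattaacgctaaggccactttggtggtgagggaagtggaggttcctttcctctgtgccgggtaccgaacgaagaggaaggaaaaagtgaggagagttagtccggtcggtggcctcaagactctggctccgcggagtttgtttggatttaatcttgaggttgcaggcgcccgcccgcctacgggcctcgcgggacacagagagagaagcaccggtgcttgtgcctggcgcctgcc
Ccnb2: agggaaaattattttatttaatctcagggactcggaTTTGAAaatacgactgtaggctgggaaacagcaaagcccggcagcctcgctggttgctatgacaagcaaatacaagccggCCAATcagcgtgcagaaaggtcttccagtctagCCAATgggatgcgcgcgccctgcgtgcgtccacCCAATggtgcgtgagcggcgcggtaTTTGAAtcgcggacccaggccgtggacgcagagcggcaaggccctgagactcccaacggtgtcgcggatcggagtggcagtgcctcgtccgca
Ccng1: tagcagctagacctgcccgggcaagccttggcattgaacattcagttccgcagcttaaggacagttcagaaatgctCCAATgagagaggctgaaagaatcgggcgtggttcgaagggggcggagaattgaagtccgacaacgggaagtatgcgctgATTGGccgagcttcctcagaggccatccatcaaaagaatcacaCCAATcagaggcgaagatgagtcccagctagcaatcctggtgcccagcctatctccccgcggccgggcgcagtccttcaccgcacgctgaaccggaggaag
The Cdk1 promoter holds 3 CCAAT, 2 CHR and 1 E2F match, and that of Ccnb2 holds 3 CCAAT and 2 CHR matches and no E2F match. In Mcm2, 1 run of capitals is read as TTTCGCGC on either strand, and in Mcm5 the matches to the 2 E2F words overlap. Ccng1 has 3 CCAAT matches and neither a CHR nor an E2F match.

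RefSeq promoters were found for 77 of the 91 member genes. An E2F match lay in 8 of them, 10.4%, against 0.8% of all 27457 promoters, and the 8 were Cdc25a, Cdk1, Mcm2, Mcm3, Mcm5, Mcm6, Mcm7 and Mcm8. CCAAT lay in 40 member promoters, 51.9%, against 37.7% of all. The CHR letters lay in 13, 16.9%, against 18.1% of all, and both CCAAT and CHR in 7, 9.1%, against 7.3% of all. The 6 promoters shown are a picked set. Cdc45, Cdc34 and Mcm10, which also had a probe set below the untreated range on all 4 cadmium arrays, have no E2F match. A match is a description of these letters only, and no binding was measured. A link between the matches and the signals was not tested.

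The values are signal intensities from MAS 5.0, and on every array their trimmed mean was 250.1. The arrays were hybridized on 3 days. Day 1 held 20 h replicate 1 and untreated replicate 1, day 3 held 20 h replicate 2, both 8 h arrays and untreated replicate 3, and day 2 held untreated replicate 2, which was also stained under an older protocol. Over all probe sets the first principal component, 33.5% of the variance, set the day 3 arrays, at scores of -36.9 to -24.0, apart from the others, at 39.3 to 47.1. Actin, whose ratio of 3′ to 5′ signal depends on how intact the RNA was, had a log2 ratio of 1.191 to 1.422 for day 3 arrays and of 0.733 to 0.985 for the rest. The day as a block turned the sign of the log2 fold change for 8 of the 86 tested member genes at 20 h against untreated, for 37 at 8 h and for 27 at 20 h against 8 h. Blocked values are therefore given beside many of the members' values, and same-day differences beside some. Untreated replicate 2 was alone on its day, so the blocked values against untreated rest on untreated replicates 1 and 3. A same-day difference is log2(signal + 15) on a cadmium array less the value on the untreated array hybridized with it, and 3 of the 4 share untreated replicate 3.

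Of 78 marker genes of the cell types of the testis, 52 passed the filter on low signal, 8 had probe sets but did not pass it, and 18 had no probe set under their symbol and are not analysed here. Those that did not pass were Sall4, Lin28a and Nanos3 of spermatogonia, Pecam1 of endothelium, and Ptprc, Itgam, S100a8 and S100a9 of leukocytes, and none exceeded a signal of 36.4 on any array. Among those not analysed were Zbtb16 and Stra8 of spermatogonia, Dmc1 of spermatocytes, Sox9 and Fshr of Sertoli cells and Cdh5 of endothelium. The sums below are over the markers that passed. The 8 spermatid markers summed to 86803 and 123952 in 20 h testes, 119860 and 118184 in 8 h testes and 89131, 80662 and 123194 in untreated testes, and 7 of the 8 were higher on every day 3 array than on any other array. The 9 spermatocyte markers summed to 32500 and 35993 at 20 h, 35661 and 35865 at 8 h and 31935, 28106 and 30527 in untreated testes. All 4 cadmium sums lay above the untreated ones, and Ldhc alone gave 10268 to 15744. The 7 spermatogonial markers summed to 2087 and 2404 at 20 h, 2429 and 2401 at 8 h and 2107, 2922 and 2355 in untreated testes. Their means were higher for 2 and lower for 5 at 20 h, and for 3 and 4 at 8 h. Kit, a weak one, was 33.0 to 43.5 on the cadmium arrays and 47.4 to 91.4 in untreated testes. Sums are ruled by the strongest markers. The 8 Sertoli cell markers summed to 12824 to 15944 over the 7 arrays and the 6 macrophage and leukocyte markers to 1445 to 1603. The 6 Leydig cell markers summed to 2469 and 7261 at 20 h, 10984 and 7090 at 8 h and 5871, 6791 and 8145 in untreated testes, with 20 h replicate 1 the lowest. The 8 endothelial markers summed to 418 and 677 at 20 h, 384 and 643 at 8 h and 793, 836 and 807 in untreated testes, and all 4 cadmium arrays lay below the untreated arrays. The part of these cell types in the members' values was not tested.

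No member passed the threshold of an adjusted p of 0.05 in limma's test at 20 h or 8 h against untreated, or at 20 h against 8 h, and the background was 0% of the 20857 probe sets tested in each comparison. The lowest adjusted p of any member in limma's test was 0.999 at 20 h and 0.836 at 8 h, and it was 1.0 for 20 h against 8 h. At an unadjusted p under 0.05 in limma's test, 2 of the 121 member probe sets were higher and 3 lower at 20 h against untreated, where 0.767% and 2.34% of all probe sets were. At 8 h against untreated, 0 were higher and 6 lower, where 1.16% and 4.06% of all probe sets were. Between the times, 0 were higher at 20 h and 2 lower, where 1.22% and 0.7% of all probe sets were. As shares of the 121, these counts were 1.65% and 2.48% at 20 h, 0.0% and 4.96% at 8 h and 0.0% and 1.65% for 20 h against 8 h, so they lie within a few probe sets of the background and are no result about the members. In the fit with the day as a block, 4 were higher and 5 lower at 20 h (2.39% and 3.35% of all probe sets), 0 were higher and 4 lower at 8 h (3.48% and 2.63%), and 0 were higher and 3 lower at 20 h against 8 h (1.07% and 2.08%), again by limma's unadjusted p, and 0 passed the adjusted threshold.

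With each gene read by its probe set of highest mean signal, the members sat close to the untreated level. The median log2 fold change over 86 genes was -0.04 at 20 h, with 35 genes higher and 51 lower, and -0.06 at 8 h, with 37 higher and 49 lower. Between the times it was 0.04, with 47 genes higher at 20 h and 39 lower. Over all 11552 genes read in the same way the medians were -0.03, -0.03 and -0.01, and over all 20857 probe sets they were -0.05, -0.08 and 0.02. Scaling the arrays to one 75th percentile turned the members' medians to 0.02, 0.05 and -0.00, so no direction is read from them.

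**Figure D1:**
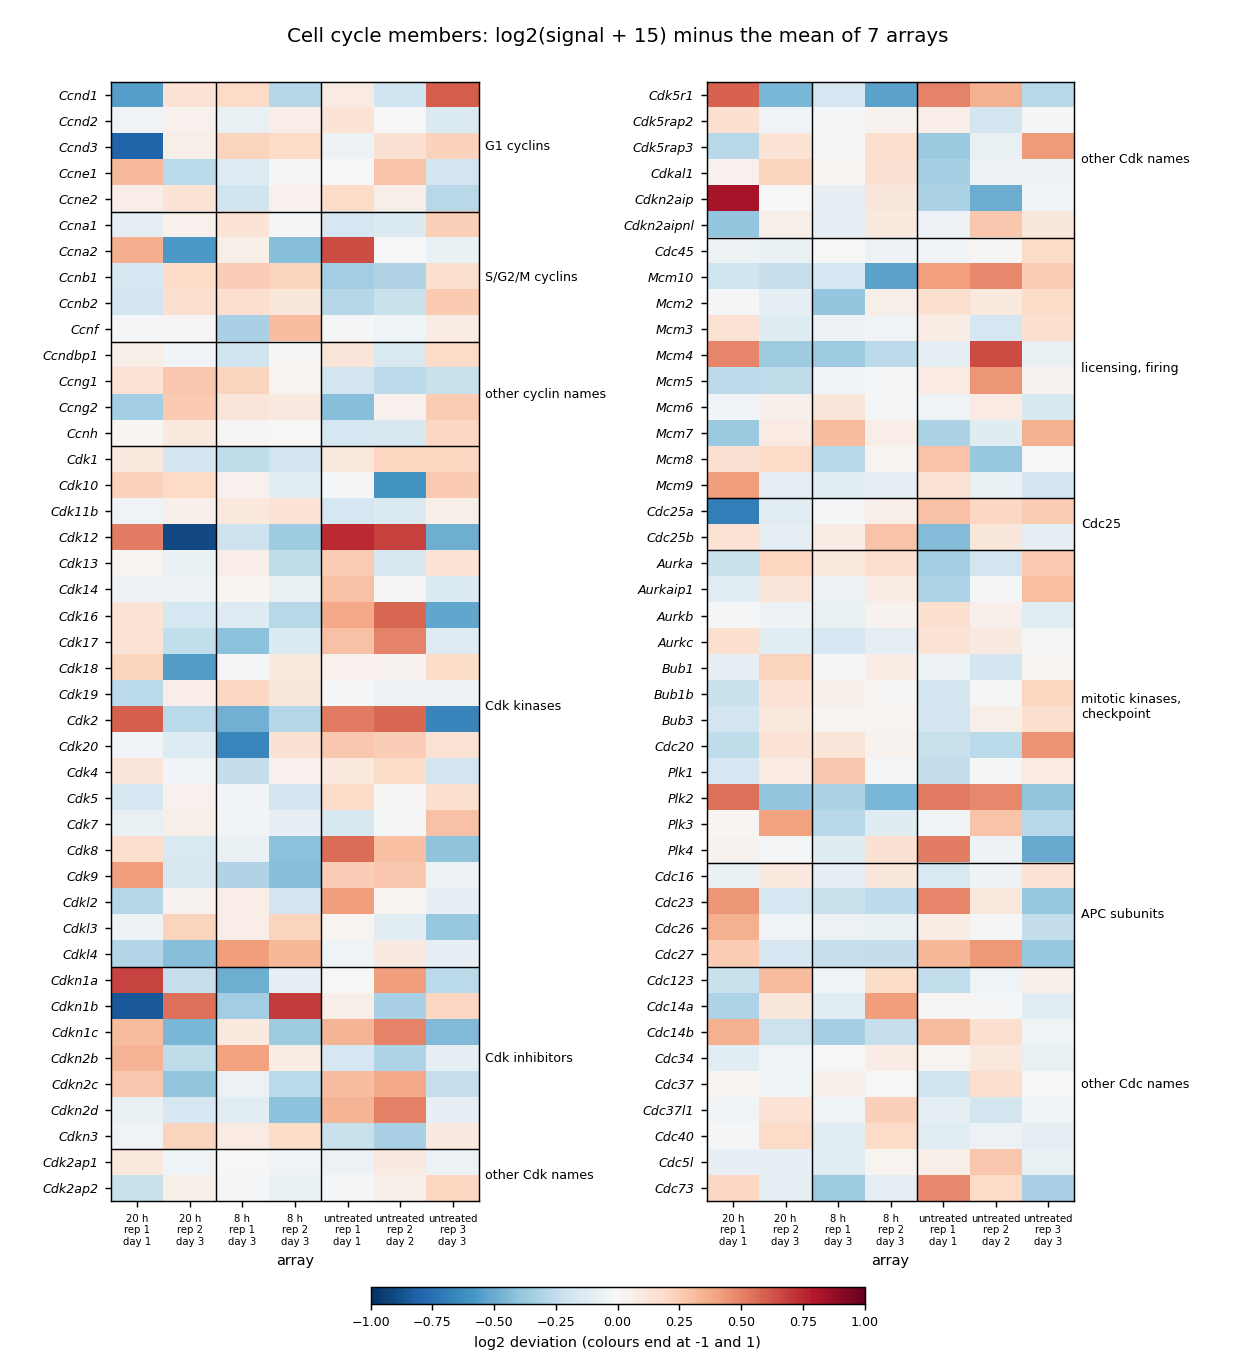
Heatmap of the 86 tested member genes by role (down the page) on the 7 arrays (across, with the replicate and the hybridization day), coloured by log2(signal + 15) minus the gene's mean over the 7 arrays. Most cells are pale; the deeper colours of Cdk12, Cdk2 and Plk2 follow the hybridization day, and those of Cdkn2aip, Cdkn1b and Cdc25a stand on 1 or 2 arrays.

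Of all members, 7 of 121 probe sets (5.79%) were below the untreated range on all 4 cadmium arrays, close to the 4.9% of all probe sets that were. Of the 7, 4 were of origin licensing and firing genes, a role with 14 of the 141 member probe sets, and this split was not tested. By the probe set of highest mean, 5 of 86 genes (5.81%) lay below on all 4, against 4.4% of all genes, and Cdc45 and Cdc34 were not among the 5. Of the 10 licensing and firing genes tested, 7 had a lower mean at 20 h and 8 at 8 h, with medians of -0.11 and -0.09. Mcm10, which helps Mcm and Cdc45 to start replication, had signals of 62.8 and 61.2 in 20 h testes, 63.9 and 46.4 in 8 h testes and 103, 109 and 91.3 in untreated testes. Both cadmium groups lay below all 3 untreated arrays. The log2 fold change was -0.59 ± 0.24 (SE) at 20 h (limma's unadjusted p = 0.0368, adjusted p = 0.999) and -0.74 ± 0.24 (SE) at 8 h (limma's unadjusted p = 0.0135, adjusted p = 0.836). The same-day differences were -0.60 and -0.48 at 20 h and -0.43 and -0.79 at 8 h, all below 0. With the day as a block, the log2 fold change was -0.54 ± 0.26 (SE) at 20 h and -0.64 ± 0.30 (SE) at 8 h. A second Mcm10 probe set, 1392061_at, had 72.4 and 44.4 in 20 h testes, 84.6 and 70.5 in 8 h testes and 58.5, 67.6 and 54 in untreated testes, with the 8 h arrays above the untreated ones, so the 2 probe sets ran opposite ways at 8 h.

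Mcm2 and Mcm5 are subunits of the Mcm helicase ring, and both have an E2F match in the promoters shown above, as do Mcm3, Mcm6, Mcm7 and Mcm8, whose 20 h and 8 h arrays overlapped untreated, while the Mcm10 promoter has none. Mcm2 had signals of 71.6 and 67.1 in 20 h testes, 52.3 and 76.7 in 8 h testes and 83.2, 79 and 84.6 in untreated testes. All 4 cadmium arrays lay below the untreated ones, but 8 h replicate 2 was close to untreated replicate 2, and the fold changes of -0.21 ± 0.25 at 20 h and -0.31 ± 0.25 at 8 h (log2, SE) had limma's unadjusted p = 0.427 and 0.244 and were -0.23 ± 0.27 and -0.32 ± 0.30 with the day as a block. Mcm5 had 121 and 121 in 20 h testes, 144 and 146 in 8 h testes and 157, 206 and 152 in untreated testes. The 20 h arrays were the lowest, the 8 h arrays came next and untreated replicate 2 was the highest. The Mcm5 log2 fold change was -0.44 ± 0.20 (SE) at 20 h (limma's unadjusted p = 0.054) and -0.21 ± 0.20 (SE) at 8 h (limma's unadjusted p = 0.327). Blocked by day, the 20 h value was -0.32 ± 0.19 and the 8 h value -0.07 ± 0.21 (SE).

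Cdc45, the partner of the helicase at firing origins, was read by 3 tested probe sets. On 1379234_a_at it had 293 and 414 in 20 h testes, 370.4 and 374 in 8 h testes and 447, 481 and 478 in untreated testes, with all 4 cadmium arrays below untreated and 20 h replicate 1 the lowest. There the log2 fold change was -0.41 ± 0.18 (SE) at 20 h (limma's unadjusted p = 0.0427) and -0.32 ± 0.18 (SE) at 8 h (limma's unadjusted p = 0.099), and with the day as a block -0.39 ± 0.15 and -0.45 ± 0.17 (SE). The Cdc45 probe set with the highest mean gave -0.12 at 20 h and -0.08 at 8 h, and its 8 h arrays overlapped untreated. The third gave -0.05 at 20 h and -0.28 at 8 h. All 3 thus had the same sign and differed in size.

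For none of the remaining helicase subunits did all 4 cadmium arrays lie outside the untreated range. Mcm3 had 188 and 154 in 20 h testes, 161 and 164 in 8 h testes and 178, 149 and 189.7 in untreated testes, and the ranges of the 3 groups overlapped. Mcm4 had 90.2 and 43.6 in 20 h testes, 43.3 and 47.5 in 8 h testes and 55.5, 103 and 56.4 in untreated testes, where 20 h replicate 1 and untreated replicate 2 were high and the rest lay between 43.3 and 56.4. Both 8 h arrays of Mcm4 lay below the untreated arrays, as they did for 13.6% of all genes tested. Its log2 fold change was -0.10 at 20 h and -0.48 at 8 h, and the 8 h value ran from -0.60 to -0.03 over the alternatives. Mcm6 had 227 and 240.3 in 20 h testes, 253 and 228 in 8 h testes and 224, 246 and 205 in untreated testes, with log2 fold changes of 0.05 ± 0.17 at 20 h and 0.09 ± 0.17 at 8 h (SE). For Mcm7 the signals were 1979.6 and 2721 in 20 h testes, 3193 and 2682 in 8 h testes and 2058, 2357 and 3281 in untreated testes, higher on every day 3 array than on any array of the other days. Mcm8 and Mcm9, relatives of the ring subunits with roles in meiotic recombination and repair, had log2 fold changes of 0.20 and 0.20 at 20 h and -0.10 and -0.06 at 8 h. In the blocked fit their 8 h values were -0.21 ± 0.21 and 0.14 ± 0.14 (SE), and every day 3 array of Mcm9 lay below the arrays of the other days. Of the other genes of replication counted beside the members, 23 were tested, 0 passed the adjusted threshold and 0 had an unadjusted p under 0.05 in limma's test in any comparison. Pcna, the clamp that holds DNA polymerase on its template, had 5472 and 6632 in 20 h testes, 6090.3 and 7196 in 8 h testes and 4985, 5460.2 and 6650.1 in untreated testes, and the day 3 arrays were the 4 highest.

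**Figure D2:**
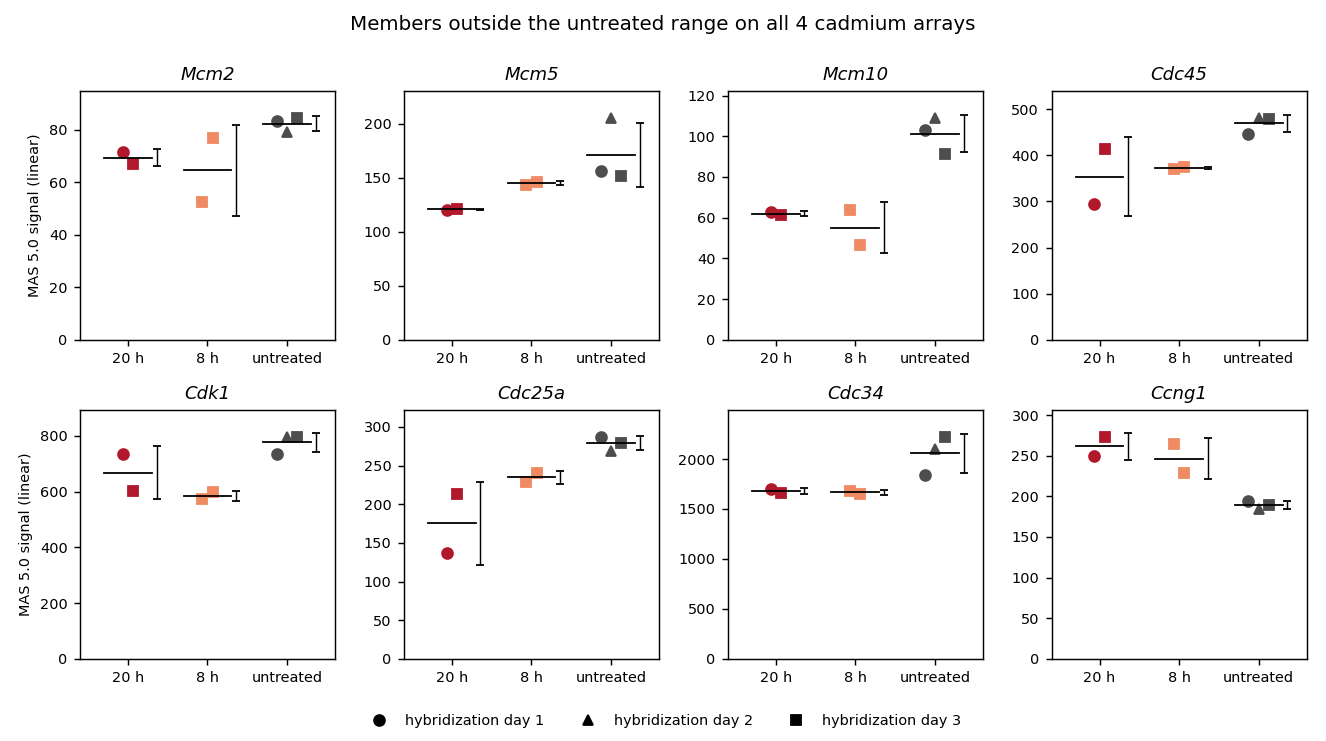
MAS 5.0 signal (linear, axis from 0) of 8 of the 10 members whose 4 cadmium arrays all lay outside the untreated range, by group, with the bar at the group mean, the error bar 1 SD (n = 2, 2 and 3) and the marker shape giving the hybridization day. Cdc45 is shown on 1379234_a_at and Cdc34 on 1388400_at, which are not their probe sets of highest mean. All cadmium points lie below the untreated points except in Ccng1, where they lie above; for Cdk1 the gap at 20 h replicate 1, 735 against 737 for untreated replicate 1, is small.

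Cdc25a, the phosphatase that frees Cdk2 and Cdk1 from inhibitory phosphate, had the lowest unadjusted p of all lower members at 20 h. Its signals were 138 and 214 in 20 h testes, 229 and 240.4 in 8 h testes and 287, 269 and 279 in untreated testes. Both 20 h arrays lay below both 8 h arrays, which lay below the 3 untreated arrays, and 20 h replicate 1 was the lowest. The log2 fold change was -0.65 ± 0.20 (SE) at 20 h (limma's unadjusted p = 0.00974, adjusted p = 0.999), -0.23 ± 0.20 (SE) at 8 h (limma's unadjusted p = 0.275) and -0.42 ± 0.22 (SE) at 20 h against 8 h (limma's unadjusted p = 0.0902). The same-day differences were -0.99 and -0.36 at 20 h and -0.27 and -0.20 at 8 h, and the fit with the day as a block gave -0.68 ± 0.19 (SE) at 20 h. Leaving out 20 h replicate 1 brought the 20 h value to -0.36. Cdc25b, a phosphatase of the same family that acts at entry into mitosis, had 81.3 and 66.8 in 20 h testes, 76.7 and 91.5 in 8 h testes and 49.7, 79.4 and 67.1 in untreated testes, and the groups overlapped.

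Among the cyclin-dependent kinases, 15 of 20 tested genes had a lower mean both at 20 h and at 8 h, with medians of -0.13 and -0.18. With the day as a block, 7 of 20 were higher at 20 h and 11 of 20 at 8 h, with medians of -0.10 and 0.00. Cdk1, the kinase of mitotic and meiotic division, had signals of 735 and 602 in 20 h testes, 573 and 597 in 8 h testes and 737, 797 and 797 in untreated testes. Both 8 h arrays and 20 h replicate 2 lay clearly below untreated, while 20 h replicate 1 was level with the untreated array of its day. The Cdk1 log2 fold change was -0.40 ± 0.15 (SE) at 8 h (limma's unadjusted p = 0.0227, adjusted p = 0.836) and -0.22 ± 0.15 (SE) at 20 h (limma's unadjusted p = 0.169). Same-day differences were -0.00 and -0.40 at 20 h and -0.47 and -0.41 at 8 h, and the 3 values near -0.4 all come from day 3 and rest on untreated replicate 3.

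Cdk9, the kinase that releases paused RNA polymerase, had 624 and 415 in 20 h testes, 375 and 342 in 8 h testes and 552, 562 and 449 in untreated testes, with the 8 h arrays the lowest. Its log2 fold change of -0.52 ± 0.20 (SE) at 8 h (limma's unadjusted p = 0.0283) came to -0.24 ± 0.16 (SE) with the day as a block. At 20 h against 8 h it was 0.49 ± 0.22 (SE), against 0.27 ± 0.16 (SE) in the blocked fit, 0.20 without 20 h replicate 1 and 0.78 without 20 h replicate 2. Every day 3 array of Cdk9 lay below every array of the other days. Cdk2, which drives S phase and is needed for meiosis, had 536 and 287 in 20 h testes, 245 and 284 in 8 h testes and 505, 524 and 215 in untreated testes. The 4 day 3 arrays lay between 215 and 287 and the other 3 between 505 and 536, whatever the group. Its 8 h fold change of -0.53 ± 0.38 was 0.20 ± 0.18 with the day as a block (log2, SE). Cdk4, the partner of D cyclins, had log2 fold changes of 0.02 at 20 h and -0.13 at 8 h, and its 8 h value turned to 0.05 ± 0.16 (SE) in the blocked fit. Cdk7, which activates other Cdks, had -0.05 and -0.10, and -0.27 ± 0.14 (SE) at 8 h when blocked.

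Cdkl4, a kinase related to the Cdks by sequence, had 42.9 and 37.7 in 20 h testes, 79.9 and 74.5 in 8 h testes and 53.8, 60.6 and 51.9 in untreated testes. The 20 h arrays lay below untreated and the 8 h arrays above. At 20 h against 8 h the log2 fold change was -0.74 ± 0.28 (SE) (limma's unadjusted p = 0.0275, adjusted p = 1.0), and with the day as a block -0.78 ± 0.32 (SE). A second probe set, 1393553_at, gave -0.48 ± 0.40 (SE). Cdk12, which phosphorylates RNA polymerase, had 189 and 61.4 in 20 h testes, 109 and 96.6 in 8 h testes and 225, 215 and 86.5 in untreated testes, and Cdk19, a kinase of the Mediator complex, had 694 and 880.3 in 20 h testes, 971 and 913 in 8 h testes and 833, 813 and 809 in untreated testes. On this Cdk12 probe set, that of highest mean, the day 3 arrays were the 4 lowest. Its log2 fold change was 0.09 at 20 h against 8 h and -0.51 at 20 h against untreated. A second tested Cdk12 probe set gave 1.15 and 0.57. On it both 20 h arrays lay above both 8 h arrays, as they did for 15.2% of all probe sets. In Cdk19 both 8 h arrays lay above the other 5 arrays, with 20 h replicate 2 next. Cdkl3, another Cdk-like kinase, had log2 fold changes of 0.24 ± 0.16 at 20 h and 0.29 ± 0.16 at 8 h (SE).

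Of the 5 G1 cyclin genes, none had a tested probe set that separated cadmium from untreated testis at either time. Ccnd3, a D cyclin, had 68.8 and 137 in 20 h testes, 155 and 151 in 8 h testes and 126, 147 and 156 in untreated testes, where 20 h replicate 1 alone was low. Its log2 fold change of -0.48 ± 0.27 (SE) at 20 h came to -0.05 without that array. Ccnd1 had 22.8 and 46.1 in 20 h testes, 48.2 and 30.4 in 8 h testes and 43.5, 33.1 and 69.1 in untreated testes, which are low signals with overlapping groups, and all 4 same-day differences were below 0, at -0.63 and -0.46 at 20 h and -0.41 and -0.89 at 8 h. Of the 20 member probe sets that did not pass the filter on low signal, 2 had all 4 cadmium arrays outside the untreated range. The first, Ccnd1 on 1383075_at, had 21.8 and 23.8 in 20 h testes, 28 and 14.3 in 8 h testes and 45.3, 43.5 and 51.5 in untreated testes, lower on every cadmium array. The second, of Cdk2ap1, a protein that binds Cdk2, on 1375326_at, had 15.8 and 24.2 in 20 h testes, 31.8 and 35.7 in 8 h testes and 4.6, 4.5 and 8.2 in untreated testes, higher on every cadmium array. Both are low signals and were not tested. Ccnd2 had 99.5 and 106 in 20 h testes, 96.9 and 108 in 8 h testes and 114, 103 and 91.5 in untreated testes and a log2 fold change of 0.00 ± 0.21 at 20 h and -0.00 ± 0.21 at 8 h (SE). The E cyclins Ccne1 and Ccne2, which start S phase with Cdk2, had -0.01 and 0.11 at 20 h and -0.10 and -0.07 at 8 h, all within 1 SE of 0. Blocked by day, their 8 h values turned to 0.22 ± 0.18 and 0.07 ± 0.18 (SE).

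Of the 5 cyclins of S phase, G2 and division, Ccnb1, Ccnb2 and Ccna1 gave values that went with the hybridization day, and Ccna2 and Ccnf did not separate by day. Ccnb1, the main partner of Cdk1 at entry into division, had 2322 and 3003 in 20 h testes, 3123 and 3069 in 8 h testes and 2064, 2129 and 2928 in untreated testes. The 8 h arrays were the highest, and the day 3 arrays of the other groups came next. The Ccnb1 log2 fold change of 0.40 ± 0.18 (SE) at 8 h (limma's unadjusted p = 0.0552) was 0.11 ± 0.10 (SE) with the day as a block, and the 20 h value of 0.17 ± 0.18 was 0.10 ± 0.09 (SE). Ccnb2 had 2243 and 2858 in 20 h testes, 2874 and 2771 in 8 h testes and 2098, 2186 and 3075 in untreated testes, and Ccna1 had 2541 and 2797 in 20 h testes, 2992 and 2697 in 8 h testes and 2415, 2475 and 3221 in untreated testes. In both, every day 3 array exceeded every array of the other days. Ccna2, the somatic A cyclin, had 64.2 and 26.3 in 20 h testes, 48.9 and 30.7 in 8 h testes and 81.7, 46.3 and 43.9 in untreated testes, at low signal and with overlapping groups, and Ccnf, a cyclin that serves in ubiquitination, had log2 fold changes of -0.00 and -0.01 at 20 h and 8 h.

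Ccng1, a cyclin known as a target of p53 that recruits a phosphatase, was higher on all 4 cadmium arrays. Its signals were 249.6 and 273 in 20 h testes, 265 and 228 in 8 h testes and 194, 185 and 189.7 in untreated testes. The untreated range was narrow, and the lowest cadmium value was that of 8 h replicate 2. The log2 fold change was 0.43 ± 0.17 (SE) at 20 h (limma's unadjusted p = 0.0291, adjusted p = 0.999) and 0.35 ± 0.17 (SE) at 8 h (limma's unadjusted p = 0.0662). All same-day differences were above 0, at 0.34 and 0.49 at 20 h and 0.45 and 0.25 at 8 h. Blocked by day, the value was 0.42 ± 0.17 (SE) at 20 h and 0.31 ± 0.20 (SE) at 8 h. Ccng2, its relative, had 368 and 567 in 20 h testes, 513 and 503 in 8 h testes and 347, 485 and 563 in untreated testes and overlapped between groups, and Ccnh, the cyclin of Cdk7, had log2 fold changes of 0.10 at 20 h and 0.05 at 8 h.

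Of the 7 kinase inhibitors tested, 3 had a higher mean than untreated testis at each time. Cdkn1a (p21), the p53 target that blocks Cdk2, had 469 and 242 in 20 h testes, 200.0 and 267 in 8 h testes and 286, 388 and 236 in untreated testes. Only 20 h replicate 1 lay above all untreated arrays, with a same-day difference of 0.68, and 20 h replicate 2 was at 0.03. Its log2 fold change was 0.17 ± 0.30 (SE) at 20 h (limma's unadjusted p = 0.569) and -0.34 ± 0.30 (SE) at 8 h (limma's unadjusted p = 0.276). Every day 3 array lay below every array of the other days, and blocking by day turned the 8 h value to 0.14 ± 0.23 (SE), while the 20 h value was 0.36 ± 0.21 (SE). A second probe set, 1387391_at, had 62.6 and 56 in 20 h testes, 38.6 and 62 in 8 h testes and 25.3, 52.8 and 55.1 in untreated testes, where both 20 h arrays were above the untreated ones by a small step. Cdkn1b (p27), which holds back G1 kinases, had 134 and 377 in 20 h testes, 196 and 421 in 8 h testes and 264, 199 and 294 in untreated testes, where the replicates of 1 group differed by more than the groups did. Cdkn1c, of the same family, had 204 and 114 in 20 h testes, 174 and 123 in 8 h testes and 208, 234 and 115 in untreated testes, with the day 1 and day 2 arrays above the day 3 arrays.

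Cdkn2d (p19Ink4d), an inhibitor of the D cyclin kinases, had 177 and 165 in 20 h testes, 173 and 137 in 8 h testes and 240.1, 270.4 and 175 in untreated testes, with both 8 h arrays below untreated. On its 2 probe sets the log2 fold change at 8 h was -0.51 ± 0.22 and -0.86 ± 0.30 (SE; limma's unadjusted p = 0.0457 and 0.0184), and with the day as a block -0.25 ± 0.22 and -0.36 ± 0.23 (SE). On both probe sets every day 3 array lay below every array of the other days. Cdkn2c (p18Ink4c), its relative, had 965 and 603 in 20 h testes, 762 and 656 in 8 h testes and 990.4, 1037 and 674 in untreated testes. Cdkn2b (p15Ink4b) had 199 and 127 in 20 h testes, 208 and 163 in 8 h testes and 135, 121 and 143 in untreated testes, with both 8 h arrays above untreated and a log2 fold change of 0.43 ± 0.23 (SE), or 0.50 ± 0.26 (SE) when blocked. Cdkn3, a phosphatase that acts on Cdks, had 6594 and 7868 in 20 h testes, 7163 and 7686 in 8 h testes and 5781, 5406 and 7186 in untreated testes, and its lowest values were the untreated arrays of days 1 and 2.

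Among genes that share the Cdk prefix but are neither kinases nor their inhibitors, Cdkn2aip, a protein that binds the Arf tumour suppressor, had 327 and 177 in 20 h testes, 167 and 193 in 8 h testes and 139.6, 122 and 172 in untreated testes. The highest array was 20 h replicate 1. At 20 h the log2 fold change was 0.69 ± 0.27 (SE) (limma's unadjusted p = 0.0268, adjusted p = 0.999), and 0.28 without that array. Cdkal1 had 581 and 659 in 20 h testes, 572 and 625 in 8 h testes and 444, 539 and 542 in untreated testes, with all 4 cadmium arrays above untreated and a log2 fold change of 0.28 ± 0.16 at 20 h and 0.23 ± 0.16 at 8 h (SE). Cdk5rap2, a centrosome protein, was read by 3 tested probe sets. On 1397832_at it had 1071 and 1159 in 20 h testes, 1750.1 and 1608 in 8 h testes and 1287, 1276 and 1709 in untreated testes, and the log2 fold change at 20 h against 8 h was -0.58 ± 0.18 (SE) (limma's unadjusted p = 0.0085, adjusted p = 1.0). The other probe sets of Cdk5rap2 gave -0.15 and 0.05.

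Mitotic kinases and the spindle checkpoint had log2 fold changes between -0.12 and 0.22 at 20 h and between -0.59 and 0.23 at 8 h over 12 genes. The Aurora kinases Aurka and Aurkb, which act on centrosomes and on chromosomes, had log2 fold changes of 0.08 and -0.07 at 20 h and 0.23 and -0.05 at 8 h. Blocked by day, the 8 h values of both turned sign, to -0.09 ± 0.12 and 0.03 ± 0.15 (SE). Aurkc, the meiotic Aurora kinase, had 1324 and 1094 in 20 h testes, 1052 and 1113 in 8 h testes and 1308, 1264 and 1170.0 in untreated testes. Both 8 h arrays lay below untreated, and all 4 day 3 arrays lay below the arrays of the other days. Plk1, a kinase of entry into mitosis, had 0.02 at 20 h and 0.19 at 8 h, and Plk4, which starts centriole duplication, 0.02 and 0.03. Plk2, a stress-responsive kinase of the same family, had 651 and 332 in 20 h testes, 349.5 and 315 in 8 h testes and 635, 618 and 329.6 in untreated testes. The day 3 arrays of Plk2 lay between 315 and 349.5 and the others between 618 and 651, and its 8 h fold change of -0.59 ± 0.33 was 0.02 ± 0.16 (log2, SE) with the day as a block. Plk3, another stress-responsive member of the family, had 57.8 and 80 in 20 h testes, 44.2 and 51.2 in 8 h testes and 55.6, 72.6 and 44.2 in untreated testes, and the 20 h arrays lay above both 8 h arrays. The checkpoint genes Bub1, Bub1b and Bub3 had log2 fold changes of 0.14, -0.05 and -0.06 at 20 h and 0.10, 0.03 and 0.02 at 8 h. Their 8 h values turned to -0.06 ± 0.12, -0.18 ± 0.16 and -0.12 ± 0.12 (SE) in the blocked fit.

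The anaphase-promoting complex, which marks cyclins for destruction, is represented by Cdc16, Cdc23, Cdc26 and Cdc27. Its 4 genes had a median log2 fold change of 0.05 at 20 h and -0.16 at 8 h, and 0.07 in both with the day as a block. Cdc27 had 491 and 363 in 20 h testes, 346 and 345 in 8 h testes and 521, 557 and 313 in untreated testes, and Cdc23 had 245 and 156 in 20 h testes, 149 and 144 in 8 h testes and 253, 191 and 132 in untreated testes. In both genes the day 3 arrays were the 4 lowest. Cdc26 had 3 tested probe sets, and the 1 with a limma unadjusted p under 0.05 at 8 h, 1377304_at, had 78.3 and 106 in 20 h testes, 74.1 and 62.1 in 8 h testes and 113, 122 and 98 in untreated testes. Its other 2 probe sets gave -0.01 and 0.01 at 8 h, against -0.60 on that one.

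The other Cdc names are a mixed group with medians of -0.06 at 20 h and 0.03 at 8 h over 9 genes. Cdc34, a ubiquitin-conjugating enzyme that serves in the removal of Cdk inhibitors, had 1702 and 1656 in 20 h testes, 1683 and 1647 in 8 h testes and 1840.3, 2102 and 2223 in untreated testes on 1388400_at, with all 4 cadmium arrays below untreated. The log2 fold change there was -0.28 ± 0.13 at 20 h and -0.30 ± 0.13 at 8 h (SE; limma's unadjusted p = 0.0602 and 0.0518), and with the day as a block -0.27 ± 0.11 and -0.34 ± 0.12 (SE). The Cdc34 probe set with the highest mean, 1388286_a_at, gave -0.09 and 0.02. Cdc14b, a phosphatase of mitotic exit, had 442 and 292 in 20 h testes, 268 and 288 in 8 h testes and 429, 383 and 330.4 in untreated testes. The 8 h arrays were the 2 lowest and the 4 day 3 arrays the lowest of the 7, and its 8 h log2 fold change of -0.43 ± 0.21 was -0.18 ± 0.17 (SE) with the day as a block. Cdc37l1, related to the Hsp90 co-chaperone Cdc37, had 1429.8 and 1610.2 in 20 h testes, 1418 and 1714 in 8 h testes and 1360.3, 1279 and 1408 in untreated testes, and all 4 cadmium arrays lay above untreated, 8 h replicate 1 by a small step.

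Counted without a fit, 3 member probe sets, those of Ccng1, Cdc37l1 and Cdkal1, had all 4 cadmium arrays above the untreated range, 2.48% against 1.82% of all probe sets. All 4 lay below it for 7, those of Cdc25a, Cdc34, Cdc45, Cdk1, Mcm10, Mcm2 and Mcm5, 5.79% against 4.9%. These shares are near the background. By time, 6 probe sets lay above and 14 below the untreated range on both 20 h arrays, where 4.65% and 10.7% of all probe sets did, and 11 above and 19 below on both 8 h arrays, where 7.59% and 15.4% did. On both 20 h arrays, 21 lay above both 8 h arrays and 14 below, where 15.2% and 13.2% of all probe sets did.

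The hybridization day separated more member probe sets than cadmium did over its 4 arrays. On every day 3 array, 15 of the 121 probe sets were higher than on any other array, where 10.6% of all probe sets were, and 31, of 25 genes, were lower, where 18.7% were. The lower share of the members was 25.6%. By 1 probe set per gene, 21 of 86 genes were lower on day 3, 24.4% against 15.2% of the 11552 genes tested. By role, 7 of 20 cyclin-dependent kinases, 4 of 7 kinase inhibitors and 3 of 4 subunits of the anaphase-promoting complex were lower on day 3, while 3 of 5 S, G2 and M cyclins and 5 of 12 mitotic kinases and checkpoint genes were higher. Both 8 h arrays, but 1 of the 3 untreated arrays, are of day 3. For the genes of this pattern named above, the 8 h values with the day as a block allow for this, but they rest on few arrays. They take nothing from untreated replicate 2, the only array of day 2. Untreated replicate 3 is the only untreated array of the day of the 8 h arrays, and untreated replicate 1 enters through the 20 h arrays. The 7 spermatid markers named above and the actin ratio moved with the day on the same arrays, and their part in it was not tested.

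**Figure D3:**
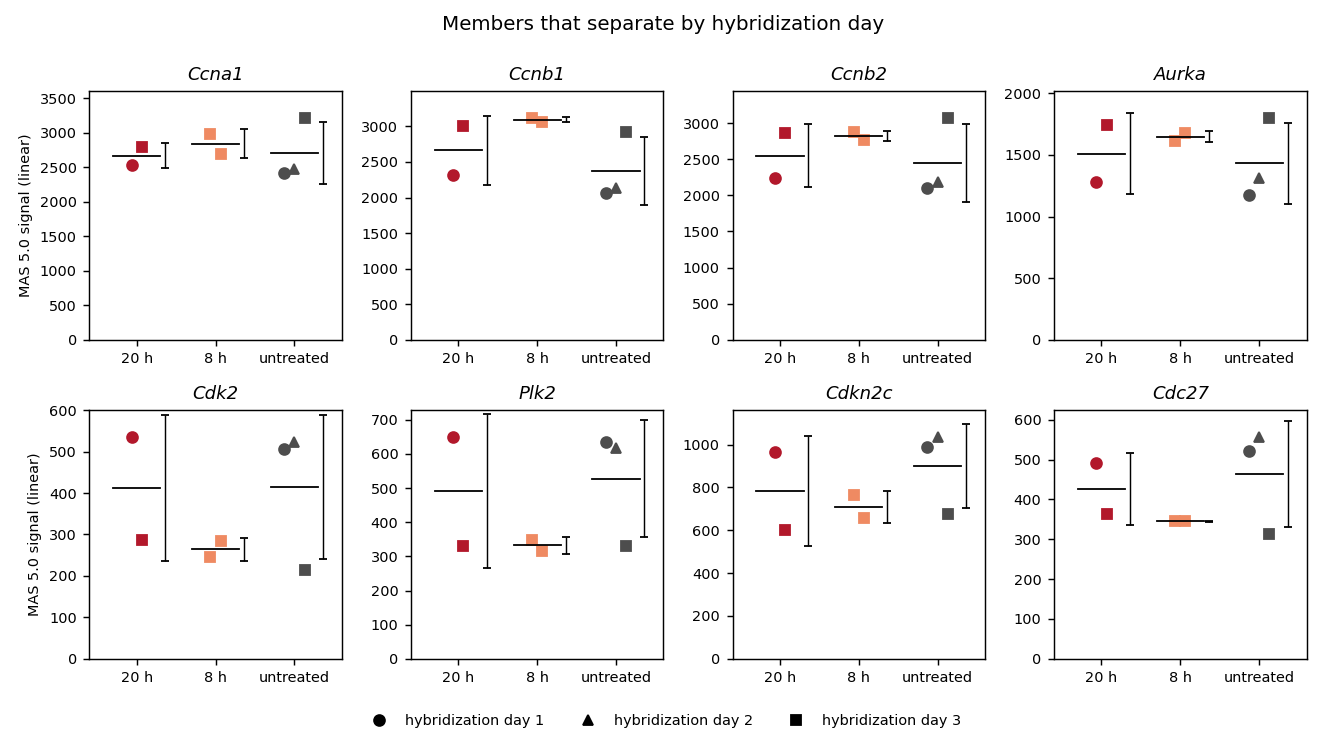
MAS 5.0 signal (linear, axis from 0) of 8 members by group, with the bar at the group mean, the error bar 1 SD (n = 2, 2 and 3) and the marker shape giving the hybridization day. In the upper row (Ccna1, Ccnb1, Ccnb2, Aurka) the squares of day 3 are the highest values in each panel, and in the lower row (Cdk2, Plk2, Cdkn2c, Cdc27) they are the lowest.

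Within a day the members lay close to the untreated array. The median same-day difference over 86 genes was -0.00 and -0.04 for the 20 h arrays and -0.04 and 0.00 for the 8 h arrays. At least 1.5-fold differences were found for 8 and 3 genes on the 20 h arrays and for 1 and 4 on the 8 h arrays, in order of replicate number, which are 9.3%, 3.49%, 1.16% and 4.65% of the members, where 11.2%, 11.7%, 11.7% and 12.1% of all genes tested differed by as much. Low Mcm10 was among them on 20 h replicate 1 and 8 h replicate 2, and low Ccnd1 on the same arrays. All 4 same-day differences were above 0 for 15 member probe sets, where 12.2% of all probe sets were, and below 0 for 26, where 17.7% were. The licensing and firing genes had median same-day differences of -0.04 and -0.27 at 20 h and -0.21 and -0.16 at 8 h, below those of all members on each array. This was not particular to them. The G1/S and E2F genes counted beside the members had -0.08 and -0.07 at 20 h and -0.15 and -0.05 at 8 h, also below all members on each array. The cyclin-dependent kinases had medians of -0.19 and -0.09 at 20 h and -0.01 and -0.00 at 8 h. They lay below all members at 20 h, but not on 8 h replicate 1.

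**Figure D4:**
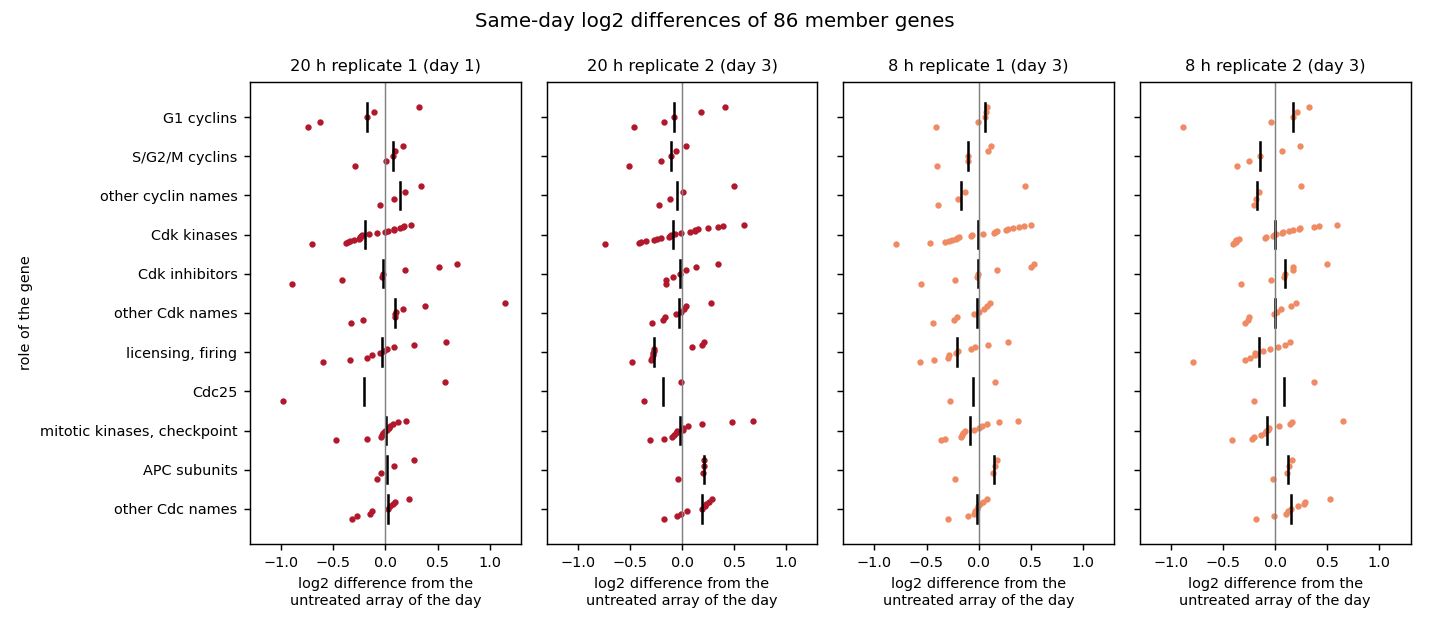
Difference in log2(signal + 15) between each cadmium array and its untreated array of the same day, for the 86 tested member genes by role (1 point a gene, black bar at the role's median; no error bars, as each difference is between 2 arrays). The licensing and firing genes have medians below 0 on all 4 arrays, from -0.27 to -0.04, as do the cyclin-dependent kinases, from -0.19 to -0.00. The largest difference, above 1, is that of Cdkn2aip on 20 h replicate 1.

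Probe sets of the same gene often disagreed. Of 24 genes with several tested probe sets, the signs of the fold changes differed for 11 at 20 h, 13 at 8 h and 8 at 20 h against 8 h. Cdc20, the activator of the anaphase-promoting complex, has 5 tested probe sets. On 1370294_a_at it had 912 and 1201 in 20 h testes, 1188 and 1118 in 8 h testes and 929.9, 901 and 1493 in untreated testes, highest on the day 3 arrays, and on 1387895_s_at it had 1065 and 719 in 20 h testes, 749 and 607 in 8 h testes and 1372, 844 and 706 in untreated testes, lowest on the day 3 arrays. Its log2 fold changes over the 5 ran from -0.19 to 0.41 at 20 h and from -0.46 to 0.10 at 8 h. For Ccnb1, the second probe set, 1370346_at, gave -0.22 ± 0.19 at 20 h and -0.06 ± 0.19 at 8 h (log2, SE), opposite in sign to the first.

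**Figure D5:**
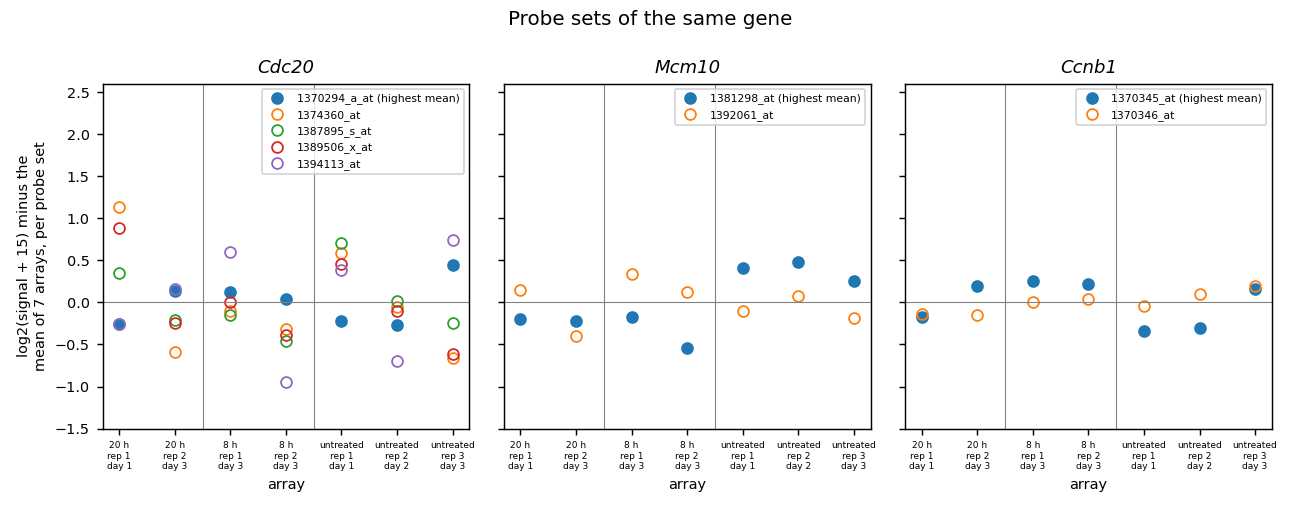
Log2(signal + 15) minus the probe set's own mean over the 7 arrays, for every tested probe set of Cdc20, Mcm10 and Ccnb1, by array (group, replicate and hybridization day); single arrays, so no error bars. The filled points, the probe set with the highest mean, and the open points part ways on several arrays, as for Mcm10 in the 8 h and untreated groups.

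Of 80 other genes of the cell cycle counted beside the members, 65 were tested and 0 passed the adjusted threshold in limma's test in any comparison. At an unadjusted p under 0.05 in limma's test, 1 was higher and 1 lower at 20 h, 0 and 2 at 8 h, and 1 and 0 at 20 h against 8 h. Of all probe sets, 0.767% and 2.34% were at 20 h, 1.16% and 4.06% at 8 h and 1.22% and 0.7% between the times. The counts lie within a few genes of these shares and are no result about this list. The genes behind the counts are Gadd45a, Tfdp2, E2f6 and Incenp. Gadd45a, a stress gene under p53 as Ccng1 and Cdkn1a are, had 329 and 193 in 20 h testes, 187 and 161 in 8 h testes and 142, 145 and 143 in untreated testes. All 4 cadmium arrays lay above untreated, as they did for 1.82% of all probe sets, and 20 h replicate 1 was the highest. The Gadd45a log2 fold change at 20 h was 0.76 ± 0.23 (SE, limma's unadjusted p = 0.00919, adjusted p = 0.999), and 0.77 ± 0.22 (SE) with the day as a block. Of the 8 tested genes of its list, checkpoint and p53, 4 had a higher and 4 a lower mean at 20 h. Sesn1 of that list had -0.35 ± 0.26 (log2, SE). Mdm2, the ubiquitin ligase of p53, had 4343 and 5660.1 in 20 h testes, 5675 and 5303 in 8 h testes and 4020.4, 3757 and 6078 in untreated testes, which followed the day. Mki67, the proliferation marker, had 1091 and 1137 in 20 h testes, 1189 and 1095 in 8 h testes and 1084, 1204 and 1213 in untreated testes and log2 fold changes of -0.06 ± 0.13 at 20 h and -0.03 ± 0.13 at 8 h (SE). Tfdp2, the partner of E2F factors, had 86.1 and 84.4 in 20 h testes, 105 and 134 in 8 h testes and 155, 170.4 and 119 in untreated testes, with both 20 h arrays below the rest and a log2 fold change of -0.69 ± 0.23 (SE; limma's unadjusted p = 0.0133), or -0.59 ± 0.22 (SE) with the day as a block. E2f6, a repressor of the E2F family, had 149 and 133 in 20 h testes, 107 and 80.5 in 8 h testes and 139, 156 and 151 in untreated testes, with both 8 h arrays below the rest and a log2 fold change of -0.60 ± 0.21 (SE; limma's unadjusted p = 0.0159), or -0.56 ± 0.24 (SE) blocked. Incenp, a partner of Aurkb, had 183 and 151 in 20 h testes, 121 and 114 in 8 h testes and 192, 212 and 153 in untreated testes, and its 8 h fold change was -0.59 ± 0.21 (log2, SE; limma's unadjusted p = 0.0182). The 4 day 3 arrays of Incenp were the lowest of the 7, and with the day as a block that value came to -0.36 ± 0.21 (SE).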

How the data were processed

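Total RNA from whole rat testis was hybridized to Affymetrix Rat230_2 arrays. The authors deposited linear signal intensities, 1 for each probe set, which they made in MAS 5.0 per the submitters' design text, where GeneSpring 7.2 is named too; the genome build of the probe sets is not given in the sources used here. Deposited instrument files hold settings and other information, per the file headers; they gave the hybridization day and staining; that of untreated replicate 2 names mouse as sample type, but its array type and labels are those of the rat samples, and it was kept.

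A probe set was kept where 2 or more arrays gave it a signal over the array's 40th percentile (20857 of 31042). With limma 3.58.1 (R 4.3.3), log2(signal + 15) was fitted over the 3 groups together, eBayes following the intensity trend (4 residual degrees of freedom, 5.48 prior), with Benjamini-Hochberg adjustment over all 20857 and a threshold of 0.05. The added 15 is the 20th percentile of all values, and fold changes on this scale understate those of low probe sets. The script was tested on simulated data. Fits with the day as a block had 2 residual degrees of freedom. No count lies behind an array value, so no counting interval is given.

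The members, the gene lists and the markers were chosen with earlier results of these data known. The naming rule took the 5 members with the lowest unadjusted p in each direction and comparison, a list of 49 cell cycle genes (45 of them tested), and members whose probe sets differ in sign. Of these, Cdc16, Cdk10, Cdk11b, Cdk13, Cdk18 and Cdkn2aipnl have no values in the Results above. Over their tested probe sets, log2 fold changes at 20 h ran from -0.63 to 0.33 for Cdk10 and from 0.05 to 0.79 for Cdk11b. They ran from -0.10 to 0.17 for Cdk13 and from -0.27 to 0.13 for Cdkn2aipnl. For Cdc16 they were 0.04 to 0.10 and for Cdk18 -0.26 to -0.08. Cdc27, Cdc37l1, Cdk2ap1, Mcm9, the markers and the other cell cycle genes named with values were chosen after their values were seen. Alternatives were other added constants, filters and normalizations, blocks for day and replicate number, no trend, and leaving out each array.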

Additional observations from a re-analysis of the deposited data

Results flagged for a closer look

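Cdkl4 on 1375495_at is the 1 of 121 member probe sets (0.826%) with the 20 h and 8 h arrays outside the untreated range on opposite sides, where 0.331% of all probe sets (69 of 20857) were. Its signals were 42.9 and 37.7 in 20 h testes, 79.9 and 74.5 in 8 h testes and 53.8, 60.6 and 51.9 in untreated testes. The log2 fold change at 20 h against 8 h was -0.74 ± 0.28 (SE). These values picked the probe set, so they are a description.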

How the results depend on the processing

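No member with a name in the text passed the adjusted threshold under any alternative. The count of probe sets called among all tested was 0 in every comparison under each other added constant, filter, normalization and block and without the trend. Leaving out single arrays gave 0 to 8 called at 20 h against untreated (8 without 20 h replicate 2), 0 to 1 at 8 h (1 without 8 h replicate 2) and 0 to 1 at 20 h against 8 h (1 without 20 h replicate 2 and 1 without 8 h replicate 2). None of these was a member. The members' median log2 fold change then ran from -0.06 to 0.00 at 20 h, from -0.07 to 0.00 at 8 h and from 0.00 to 0.04 for 20 h against 8 h. Of 64 named members, 27 kept their sign under all alternatives at 20 h and 25 in each of the other comparisons. Both at 20 h and at 8 h it was kept for Ccng1, Cdc25a, Mcm10, Mcm2, Mcm5 and Cdk1. The same held for Cdc25b, Cdk11b, Cdk13, Cdkal1, Cdkl3, Cdkl4, Cdkn2aip, Cdkn2d and Cdkn3. These signs are those of each gene's probe set of highest mean. At 8 h another tested probe set had the opposite sign for Mcm10 (0.30), Cdk11b (-0.35), Cdk13 (0.09) and Cdkn2aip (-0.02). Where all 4 cadmium arrays lay outside the untreated range, leaving out an array could not turn the sign, so a kept sign adds no support there.

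The replicate numbers do not pair the arrays: deviations of same-numbered arrays correlated at 0.09 between 20 h and untreated, 0.00 between 8 h and untreated and 0.14 between the times. With the replicate block, 0 probe sets were called and the members' medians were -0.06, -0.05 and 0.04. Only the untreated group has a replicate 3, so this block sets aside untreated replicate 3, the only untreated array of day 3. The 8 h arrays are then compared with no untreated array of their day. Of all 20857 probe sets, those with limma's unadjusted p under 0.05 numbered 511 higher and 1408 lower at 20 h, 1132 and 2627 at 8 h and 556 and 274 between the times. Without the block they numbered 160 and 488, 242 and 846, and 255 and 146. Quantile normalization made the split 293 and 279 at 20 h and 378 and 469 at 8 h, scaling to one 75th percentile 224 and 372 and 332 and 609, and the day as a block 499 and 698 at 20 h, 726 and 549 at 8 h and 223 and 433 between the times.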
